A study of Mus musculus with 6 samples.

Results

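The 45 genes described here encode the enzymes of glycolysis, the pyruvate dehydrogenase step, the tricarboxylic acid (TCA) cycle and the pentose phosphate pathway, with 2 enzymes of gluconeogenesis. They are the genes of a fixed list of metabolic enzymes, looked up by symbol in tables of 24054 genes, and all 45 were found. This list, like the other gene lists below, was chosen with earlier results of these data known. Shares of list members set beside shares of all genes are not independent of that choice. By role, 19 belong to glycolysis, 5 to the pyruvate dehydrogenase step (4 subunits of the complex and its kinase Pdk1), 15 to the TCA cycle and its NADP-dependent isocitrate dehydrogenases, 4 to the pentose phosphate pathway and 2 to gluconeogenesis. Low counts removed Fbp1, a gluconeogenic phosphatase with 1 to 32 reads per library, from the test, which left 44 members among 14539 tested genes.

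Glycolysis splits glucose into pyruvate in the cytosol, and lactate dehydrogenase can turn that pyruvate into lactate. The pyruvate dehydrogenase complex instead passes it into the TCA cycle of mitochondria, and pyruvate dehydrogenase kinases switch that complex off. The pentose phosphate pathway branches from glucose 6-phosphate and supplies NADPH and ribose. Pluripotent cells are known for a high rate of glycolysis, and several enzymes exist as isozymes from separate genes that differ between tissues.

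RNA was sequenced from 6 samples, 2 replicates of each of 3 populations. All came from a double knock-in (DKI) mouse embryonic stem cell (ESC) line, heterozygous for a Foxa2-Venus fusion and homozygous for a Sox17-Cherry fusion, so every group carried both reporters. The populations were ESCs negative for both reporters (d0, day 0), mesendoderm cells positive for Foxa2-Venus and negative for Sox17-Cherry (d3F, day 3), and endoderm cells positive for both (d5FS, day 5). Differentiation used 1 ng/ml Wnt3a and 10 ng/ml Activin A in endoderm differentiation medium, with sorting on the reporters. Undifferentiated ESCs were instead kept in a DMEM-based medium with serum and LIF. Dishes for day 3 and day 5 were seeded with different numbers of cells. It is a single line, and population, day, cell number seeded and sorting gate cannot be told apart. In comparisons with d0 the culture medium cannot be told apart from these either. The study's methods call the replicates independent and biological.

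Libraries held 16457729 to 22768686 assigned read pairs, and 16773 to 19859 genes had a read. The reporter genes and pluripotency genes followed the labels, except that Sox17 RNA in d3F, sorted as Sox17-Cherry negative, was above d0. Levels are in CPM (read counts scaled to a common library size after TMM normalisation). Foxa2 was at 0.0439 and 0.308 CPM in d0, 71.1 and 47.8 CPM in d3F, and 36.6 and 59.4 CPM in d5FS. Sox17 was at 4.75 and 14.5 CPM in d3F and 54.3 and 103 CPM in d5FS, against at most 0.746 CPM in d0. The summed CPM of 7 pluripotency genes was 1860 to 7196 in d0, 577.7 to 995.7 in d3F and 213.9 to 272.6 in d5FS. Of other cell types, 7 fibroblast markers summed to 9.65 to 14.6 CPM in d0 and 31.7 to 77 CPM in d3F. In d5FS the sum was 195 to 232 CPM, mostly from collagen genes. Postn rose too, with 0.57 and 0.359 CPM in d0, 2.84 and 5.36 CPM in d3F and 31.3 and 6.13 CPM in d5FS. Thy1 had 3.07 and 1.49 CPM in d0 and 1.02 and 0.459 CPM in d5FS. Dcn stayed under 1 CPM and Lum at or near 0 in all libraries. The 6 extraembryonic endoderm markers summed to 29 to 78.6 CPM in d0, 16.4 to 16.8 in d3F and 51.3 to 97.3 in d5FS. Rhox5 made up most of the d0 sum, at 25.4 and 75.2 CPM, and had 21.8 and 36.3 CPM in d5FS. Ttr went from 0 and 0.154 CPM in d0 to 10.7 and 20.2 CPM in d5FS. Afp went from 0.132 and 0.0513 to 6.13 and 25.3 CPM, and Cubn from 1.1 and 0.256 to 8.74 and 9.52 CPM. Sox7 went from 0.789 and 0.41 to 1.82 and 1.03 CPM, and Amn overlapped between d0 and d5FS. None of the 13 marker genes of these other cell types was at 0 in every library, and their part in the results was not tested.

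The promoters of 3 members that fell between d0 and d5FS and of the 1 that rose are shown first, because these are the sequences next to the changes described below; they were chosen with their matches known. Each is the 250 bases before a RefSeq gene start on GRCm38.p6, read on the gene's strand, with every ACGTG or GCGTG on either strand in capitals (CACGT and CACGC are the same letters read on the other strand). These letters are the core of the site bound by hypoxia-inducible factors.
Pdk1, chr2:71872974-71873223, + strand: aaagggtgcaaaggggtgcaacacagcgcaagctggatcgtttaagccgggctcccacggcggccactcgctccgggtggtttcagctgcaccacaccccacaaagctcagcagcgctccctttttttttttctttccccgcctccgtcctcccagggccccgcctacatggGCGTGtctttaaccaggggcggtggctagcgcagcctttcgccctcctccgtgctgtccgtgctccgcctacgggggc
Hk2, chr6:82774455-82774704, - strand: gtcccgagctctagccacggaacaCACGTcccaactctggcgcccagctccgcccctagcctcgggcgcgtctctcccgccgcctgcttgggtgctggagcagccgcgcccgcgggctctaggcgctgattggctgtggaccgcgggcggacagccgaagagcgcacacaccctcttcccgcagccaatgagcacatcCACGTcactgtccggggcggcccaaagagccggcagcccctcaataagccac
Pgam1, chr19:41911621-41911870, + strand: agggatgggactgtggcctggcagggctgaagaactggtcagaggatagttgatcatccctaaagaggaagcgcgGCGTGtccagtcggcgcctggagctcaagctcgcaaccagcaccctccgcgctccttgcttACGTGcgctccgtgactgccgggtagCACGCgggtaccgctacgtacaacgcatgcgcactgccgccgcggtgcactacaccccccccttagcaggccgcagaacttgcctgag
Eno2, chr6:124769674-124769923, - strand: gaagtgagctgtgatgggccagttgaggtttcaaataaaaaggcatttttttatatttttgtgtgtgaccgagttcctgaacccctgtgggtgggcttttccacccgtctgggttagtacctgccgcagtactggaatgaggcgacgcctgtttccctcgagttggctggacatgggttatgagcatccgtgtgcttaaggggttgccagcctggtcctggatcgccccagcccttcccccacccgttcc
The Hk2 stretch holds 2 ACGTG matches, that of Pgam1 holds 1 ACGTG and 2 GCGTG matches, that of Pdk1 holds 1 GCGTG match, and that of Eno2 holds neither. Over all RefSeq windows of the members that fell, 11 windows of 7 genes, 4 held ACGTG and 7 held GCGTG, while 1 of the Pkm windows and a further Pdk1 window held neither. RefSeq windows from 250 bases before to 50 bases after the start were found for 44 of the 45 members, 64 windows in all, out of 32851. ACGTG was in 37.5% of member windows and 19.6% of all windows, and GCGTG in 56.2% and 32.4%. The E-box CACGTG, which overlaps ACGTG, was in 9.38% of member windows and 7.15% of all windows, the Sp1-type GGGCGG in 62.5% and 35.7%, and the forkhead motif TGTTTAC in 1.56% and 3.65%. Median GC content was 60.2% for member windows and 52.7% for all windows. These are matches of letters, with no test of their use.

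As a share of all reads, the 45 members together held 1.69% and 1.71% for the d0 replicates, 1.82% and 1.78% for d3F, and 0.688% and 1.11% for d5FS. Both endoderm libraries thus lay below the other 4. For bulk RNA of sorted cells, fewer cells of a type and less RNA per cell cannot be told apart. Summed over the 19 glycolytic genes, TPM rescaled with the TMM factors, a level per transcript length, was 3651 and 3879 for the d0 replicates, 3683 and 3750 for d3F and 1095 and 2209 for d5FS, so that the d5FS mean was 43.9% of that in d0. For the 4 subunits of the pyruvate dehydrogenase complex the sums were 141.7 and 161.7 for d0, 96.36 and 99.18 for d3F and 74.94 and 74.31 for d5FS, or 49.2% of d0. The 15 TCA and NADP-dependent isocitrate genes were closer together, at 361.3 and 484 for d0, 389.7 and 512.7 for d3F and 308.5 and 376.6 for d5FS, with 81.1% of the d0 mean in d5FS and overlapping libraries. The 4 pentose phosphate genes summed to 160.7 and 298.9, 200.2 and 299.5, and 126 and 184.3, 67.5% of d0 in d5FS, again with overlap. On the TPM scale as deposited the 4 d5FS percentages were 32.4%, 39.7%, 65.9% and 57.2%, and the d5FS libraries of the TCA and pentose phosphate sums no longer overlapped those of d0. On that scale the glycolytic sums of d0 were 5383 and 2709, coding genes made up 23.1% to 45.7% of TPM and the top 5 RNAs, all short and non-coding, 41.7% to 65.2%. Of these, Snord22 alone held 33% of TPM in d5FS replicate 2 and 0% in each other library. As TPM has a fixed sum, this lowers all other deposited values of d5FS replicate 2. How far the lost overlap rests on it was not tested.

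**Figure D1:**
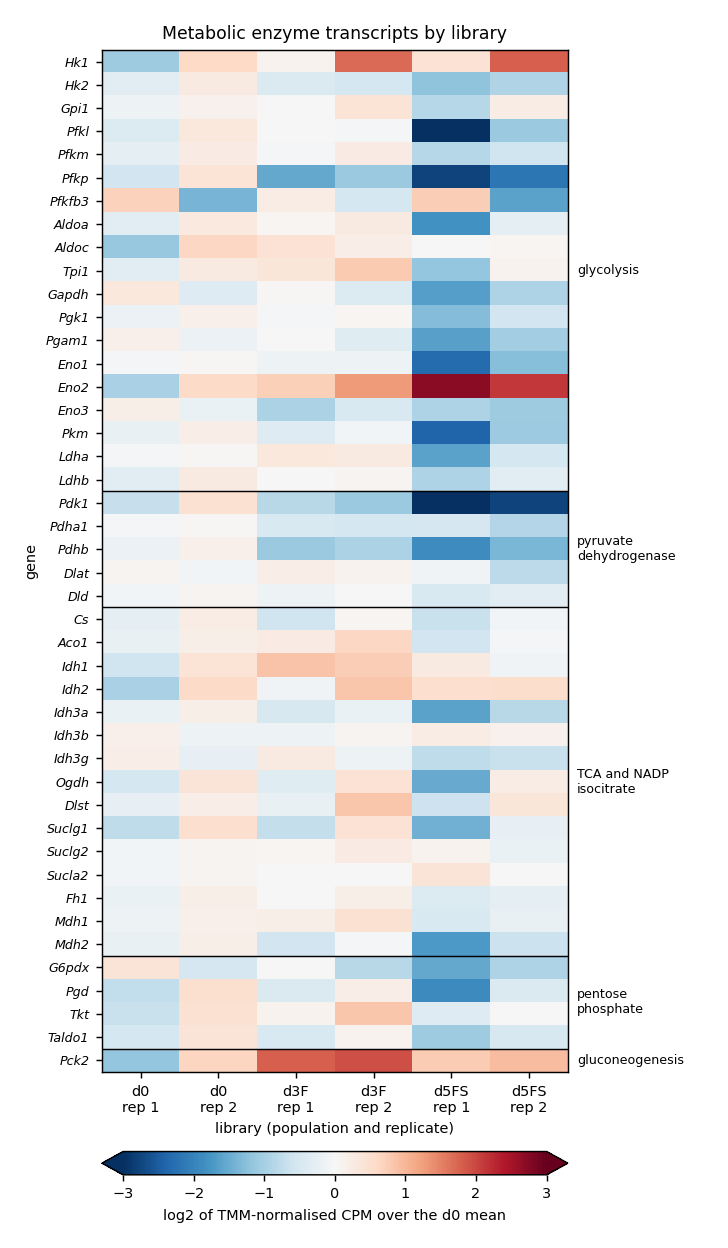
Heat map of 44 metabolic enzyme genes (rows, by role) in the 6 libraries (columns), coloured by the log2 of TMM-normalised CPM over the d0 mean of the gene, from blue (lower) to red (higher), with the scale ending at 3 in either direction. Most glycolytic rows are bluest in d5FS replicate 1 and paler in d5FS replicate 2, while Eno2, Hk1, Pck2 and Idh2 are red in both d5FS libraries and Idh3b faintly so.

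Between d0 and d5FS, 8 members fell and 1 rose at an adjusted p under 0.05 (edgeR quasi-likelihood test, Benjamini-Hochberg over 14539 genes), all 9 by more than 2-fold. The 8 are 18.2% of the 44 tested members, where 10.7% of all tested genes fell, and the 1 is 2.27%, where 12.5% of all tested genes rose. The median log2 fold change of the members was -0.64, against 0.02 over all tested genes. It was -0.89 in glycolysis, -0.68 at the pyruvate dehydrogenase step, -0.33 in the TCA group and -0.87 in the pentose phosphate pathway. Both d5FS libraries were below both d0 libraries for 22 of the 44 members (30.5% of all genes) and above them for 2, Eno2 and Pck2 (32.2% of all genes). By role, 11 of 19 glycolytic genes, 5 of 5 at the pyruvate dehydrogenase step, 5 of 15 in the TCA group and 1 of 4 in the pentose phosphate pathway were lower in both d5FS libraries. With the replicate number as a block, 23 members passed, where 37.6% of all genes did, 21 lower (18.5% of all genes) and 2 higher (19.2% of all genes). Without d5FS replicate 1, Pdk1 was the 1 member still called, and the share of all genes called went from 23.3% to 6.83%. Without d3F replicate 1 or without d3F replicate 2, the calls of Hk2, Idh3a, Pgam1 and Pkm were lost. Without d5FS replicate 2 the calls of Eno2, Hk2 and Pgam1 were lost, and without d0 replicate 1 that of Pgam1. Without d0 replicate 2 those of Hk2, Idh3a and Pkm were lost. In each of these fits a smaller share of all genes was called than in the fit with all libraries.

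From d0 to d3F no member passed (edgeR quasi-likelihood test), while 4.7% of all tested genes did. At an unadjusted p under 0.05 there were 4 members, Pck2, Pdhb, Pdk1 and Pfkp (20.6% of all genes). The DESeq2 Wald test called 3 of these, Pck2, Pdhb and Pfkp (10.1% of all genes). DESeq2 tested against 2-fold called 0 (2.68% of all genes). With the replicate block 4 members passed (9.69% of all genes): Hk1 rose (log2 fold change 1.12, adjusted p = 0.0259), Pck2 rose (2.04, 0.0326), Pdhb fell (-1.02, 0.0259) and Pfkp fell (-1.24, 0.0272). Without d0 replicate 1 Pdk1 and Pfkp passed, and a larger share of all genes was called than with all libraries. Without d0 replicate 2 Pck2 passed, and that share was smaller. Both d3F libraries lay above both d0 libraries for 8 members (26.7% of all genes) and below them for 7 (24.2% of all genes), and the median log2 fold change was 0.00 for members and -0.01 over all genes.

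From d3F to d5FS no member passed either (edgeR quasi-likelihood test), with 1.54% of all tested genes called, and 13 members had an unadjusted p under 0.05, where 18.1% of all genes did. The DESeq2 Wald test called 6 members, all lower (7.17% of all genes in either direction). DESeq2 tested against 2-fold called 0 (1.28% of all genes). With the replicate block 6 members fell (6.98% of all genes passed in either direction): Eno1 (log2 fold change -1.62, adjusted p = 0.0302), Ldha (-1.34, 0.0483), Pdk1 (-2.03, 0.0265), Pfkl (-2.06, 0.0482), Pfkp (-1.16, 0.0415) and Pkm (-1.49, 0.0321). The d0 libraries enter this step through the filter on low counts, the scaling and the shared spread. Without d0 replicate 1 or d0 replicate 2, Pdk1 was called, and so was a larger share of all genes. Both d5FS libraries lay below both d3F libraries for 29 members (25.7% of all genes) and above them for 2, Eno2 and Idh3b (26.5% of all genes). In glycolysis this held for 14 of 19 genes. The median log2 fold change was -0.68 for members and 0.01 over all genes. The comparisons share libraries: d3F enters both steps, and d0 and d5FS enter the span from d0 to d5FS as well.

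**Figure D2:**
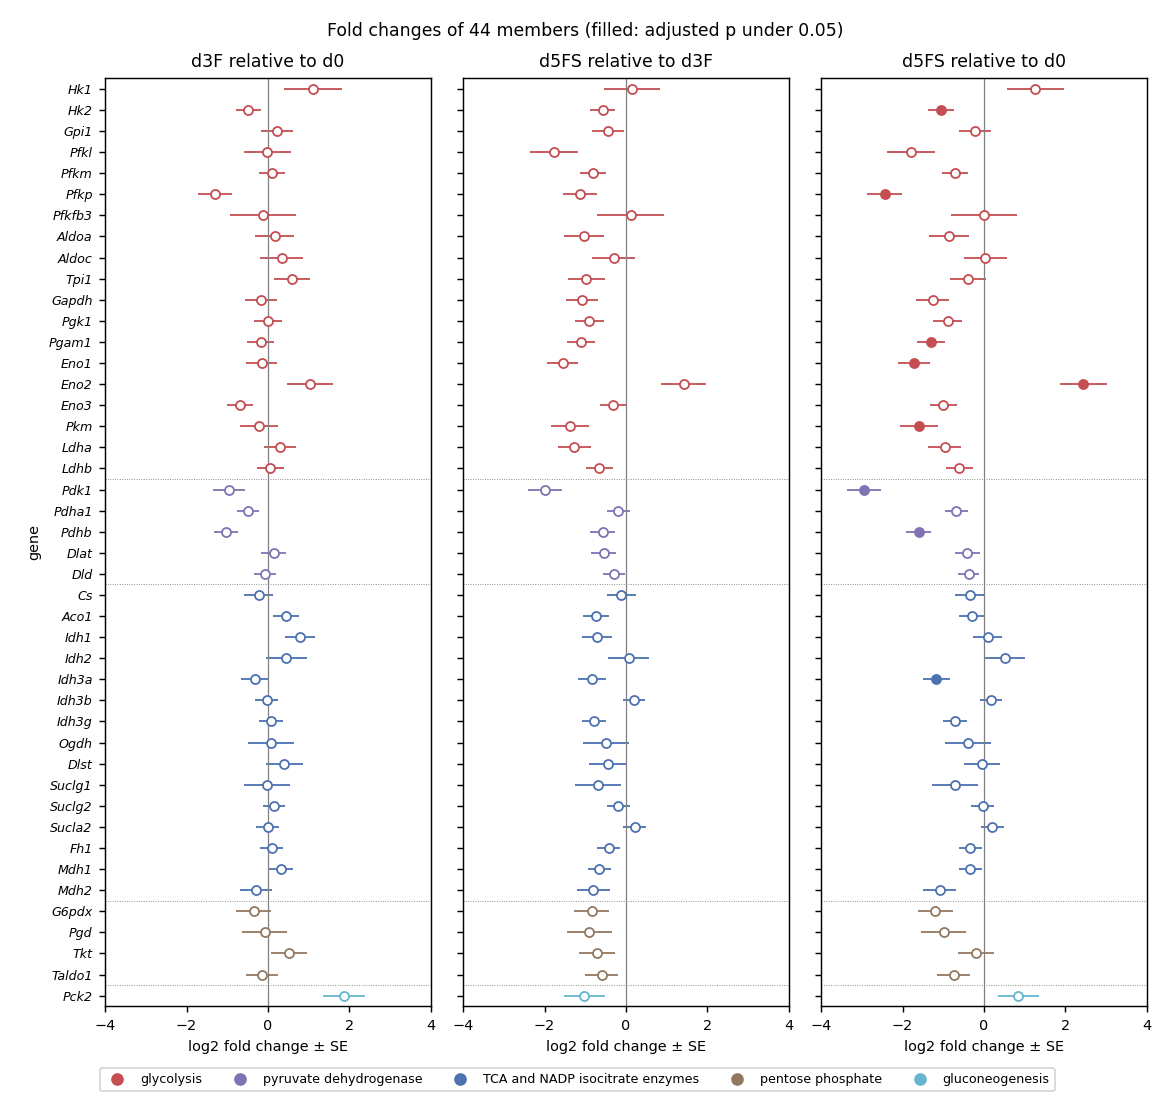
Log2 fold change with its SE from the edgeR fit for 44 members (rows, coloured by role) in d3F relative to d0, d5FS relative to d3F and d5FS relative to d0, with filled points at an adjusted p under 0.05. No point is filled in the first and second panels, and in the third panel 8 filled points lie below 0 and 1, Eno2, above.

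Pkm, pyruvate kinase of the last step of glycolysis (chr9:59656368-59679375, mm10), was the most abundant member, at 4061 and 5481 CPM in d0, 3637 and 4541 CPM in d3F and 909.8 and 2241 CPM in d5FS. Both d5FS libraries lay below the other 4, although by ratio they stood further apart than the pair of either other population. Pkm fell from d0 to d5FS with a log2 fold change of -1.60 ± 0.47 (SE, adjusted p = 0.0418, edgeR). Eno1, enolase 1 (chr4:150236721-150248879), had 1464 and 1520 CPM in d0, 1343 and 1348 CPM in d3F and 300.4 and 613 CPM in d5FS. Its d0 and d3F libraries were nearly level and the drop lay after d3F. Eno1 dropped by 1.71 ± 0.39 on the log2 scale (adjusted p = 0.0187, edgeR). Pgam1, phosphoglycerate mutase (chr19:41911923-41918660), was also lowest in d5FS, with 1135 and 892 CPM, then 1001 and 785 CPM, then 330.0 and 494 CPM. It fell by 1.30 ± 0.35 on the log2 scale (adjusted p = 0.0305, edgeR).

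Eno1 reads are partly shared with Eno1b, a near-identical copy of the gene. Eno1b took 22.7% to 24.1% of the sum of both in every library, and its level went from 449 and 449.7 CPM in d0 to 92 and 195 CPM in d5FS. The tables assign reads that fit both genes by estimate, so the split between them is uncertain. With both counted together, the log2 fold change was -1.70 (adjusted p = 0.02, edgeR).

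Hk2 and Pfkp are isozymes of the regulated early steps. Hk2, hexokinase 2, which phosphorylates glucose (chr6:82725025-82774454), had 181 and 275 CPM in d0, 169 and 158 CPM in d3F and 98.4 and 122 CPM in d5FS, each population below the one before. Hk2 fell by 1.05 ± 0.31 on the log2 scale between d0 and d5FS (adjusted p = 0.044, edgeR), but the call was lost with library size alone (adjusted p = 0.0566), with only the groups compared (0.0837) and in 5 of the 6 fits that left out a library. Pfkp, the platelet isozyme of phosphofructokinase (chr13:6579768-6648777), had 37.2 and 74 CPM, then 19.3 and 25.8 CPM, then 8.17 and 12.3 CPM, again with no overlap between populations. Pfkp dropped by 2.44 ± 0.43 on the log2 scale (adjusted p = 0.00787, edgeR). Its exons overlap those of Pitrm1 on the opposite strand, and the kit does not mark strand.

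Eno2, the neuronal enolase (chr6:124760053-124769673), was the 1 member that rose. It had 1.14 and 3.33 CPM in d0, 3.65 and 5.46 CPM in d3F and 14.5 and 9.8 CPM in d5FS, from 26 to 256 reads per library. Every population lay above the one before it. In d5FS relative to d0 the log2 fold change was 2.45 ± 0.58 (adjusted p = 0.0208, edgeR).

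**Figure D3:**
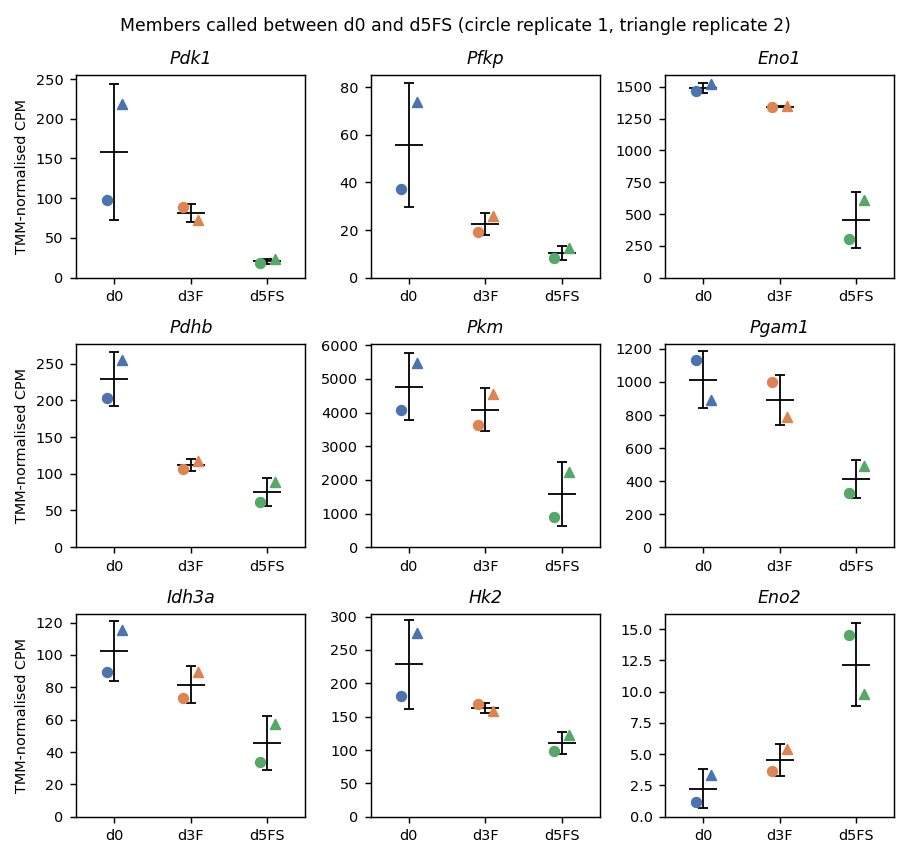
TMM-normalised CPM of the 9 members called between d0 and d5FS in d0, d3F and d5FS (circle, replicate 1, and triangle, replicate 2), with the mean and SD of the pair as lines and each axis starting at 0. In 8 panels both d5FS points lie below both d0 points, and in the Eno2 panel they lie above.

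The other glycolytic genes did not pass in the edgeR fit with the filter on low counts and no block. Without that filter, Pfkl (adjusted p = 2.1e-05), Gapdh (0.00383), Hk1 (0.00851) and Ldha (0.0337) passed in edgeR. Gapdh, which oxidises glyceraldehyde 3-phosphate, had 2243 and 1385 CPM in d0, 1865 and 1362 CPM in d3F and 575 and 947 CPM in d5FS (log2 fold change from d0 to d5FS -1.25 ± 0.40, adjusted p = 0.0555, edgeR). Ldha, the muscle-type lactate dehydrogenase, was higher in both d3F libraries (2078 and 2012 CPM) than in d0 (1626 and 1687 CPM) and lowest in d5FS (547 and 1149 CPM). Pfkl, the liver isozyme of phosphofructokinase, had 209 and 343 CPM in d0, 276 and 269 CPM in d3F and 31.4 and 129 CPM in d5FS. The d5FS libraries of Pfkl lay below the other 4, and its log2 fold change from d0 was -1.79 ± 0.59 (adjusted p = 0.0602, edgeR). Pgk1, phosphoglycerate kinase on the X chromosome, had 945 and 1184 CPM in d0, 1033 and 1107 CPM in d3F and 432 and 716 CPM in d5FS. With the replicate block, Gapdh (-1.22, adjusted p = 0.0331), Ldha (-1.03, 0.0351), Pfkl (-1.96, 0.0168), Pgk1 (-0.92, 0.0178), Aldoa (-0.97, 0.0486), Pfkm (-0.70, 0.0353) and Eno3 (-0.995, 0.0316) were also called lower in d5FS than in d0, and Hk1 higher (1.34, 0.00555).

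Gpi1, Tpi1 and Pfkfb3 were not called under either fit. Gpi1, glucose 6-phosphate isomerase, ranged from 153 to 366 CPM and Tpi1, triose phosphate isomerase, from 226 to 871 CPM, and d5FS overlapped d0 for both. Pfkfb3, which makes the activator of phosphofructokinase, had 27.5 and 6.41 CPM in d0, 19.7 and 11.7 CPM in d3F and 28.4 and 5.56 CPM in d5FS. In each population its replicate 1 was higher than its replicate 2 and the populations overlapped. Aldoa, aldolase A, had 758 and 1174 CPM in d0, 1004 and 1158 CPM in d3F and 277 and 788 CPM in d5FS, so that 1 d5FS library reached into the range of d0.

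Isozyme shares, computed from TPM within each enzyme family of a library, do not depend on the scaling between libraries. Hk1, the broadly expressed hexokinase, made up 6.69% and 13.1% of Hk1 plus Hk2 in d0, 14.8% and 35.7% for d3F and 27.1% and 43.3% for d5FS. The means were 9.88% ± 4.51, 25.2% ± 14.8 and 35.2% ± 11.4 (SD, n = 2), with d3F overlapping d5FS. In level, Hk1 had 9.69 and 30.8 CPM in d0, 21.8 and 65.3 CPM in d3F and 27.3 and 69.6 CPM in d5FS, so that all populations overlapped. Hk1 exons overlap those of the antisense gene Hk1os.

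Hkdc1, a hexokinase-like enzyme that lies next to Hk1 (chr10:62383137-62422491) and is not on the list of 45, came to hold a large share of the family. It had 4 and 9 reads in d0, 29 and 97 for d3F and 607 and 1194 for d5FS, or 0.175 and 0.461 CPM, 1.18 and 4.9 CPM, and 34.4 and 68.4 CPM. Hkdc1 rose from d0 to d5FS (log2 fold change 7.34 ± 0.88, adjusted p = 0.00262) and from d3F to d5FS (4.09 ± 0.71, adjusted p = 0.0373, edgeR). The first call held in each fit that left out 1 library, and the second was lost without d3F replicate 1, d5FS replicate 1 or d5FS replicate 2. Of the summed TPM of Hk1, Hk2 and Hkdc1, it made up 0.13% and 0.217% in d0 and 29.2% and 33.9% in d5FS. Over the same span Hk2 went from 93.2% and 86.7% to 51.6% and 37.5%.

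In the enolases, aldolases and lactate dehydrogenases 1 isozyme held most of the TPM in every library. Eno1 made up 97.3% and 97.9% of enolase TPM in d0, 98.5% and 97.9% for d3F and 91.6% and 96.3% for d5FS. Eno2 held 0.0495% and 0.139% in d0 and 2.87% and 0.999% in d5FS, and the muscle enolase Eno3 2.63% and 1.99% in d0 and 5.56% and 2.67% in d5FS. Aldoa made up 96.6% to 99.4% of aldolase TPM, with Aldoc, at 5.13 to 17.5 CPM over the 6 libraries, as the remainder. Ldha made up 93.2% and 90.3% of lactate dehydrogenase in d0, 93.2% and 92.7% for d3F and 87.4% and 90.6% for d5FS, with the heart-type Ldhb, at 60.2 to 139 CPM, as the remainder. Eno3 itself had 32.9 and 25.6 CPM in d0, 15.1 and 21.2 CPM in d3F and 15.3 and 14 CPM in d5FS, below d0 in all 4 later libraries.

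Pfkl was 71.1% and 70.9% of phosphofructokinase TPM in d0 and 78.2% and 73.7% in d3F. In d5FS the replicates disagreed: Pfkl was 42.9% and Pfkm, the muscle isozyme, 46.9% in replicate 1, against 71.1% and 22.6% in replicate 2. The level of Pfkm was 38.5 and 55.5 CPM in d0, 44.9 and 55.4 CPM in d3F and 26.2 and 31.1 CPM in d5FS, where the replicates were close. Without d5FS replicate 1 the Pfkl share in d5FS was 0.129 percentage points above d0 instead of 14 below. Pfkp went from 11.6% and 14% in d0 to 5.03% and 6.46% in d3F and was 10.3% and 6.25% in d5FS.

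**Figure D4:**
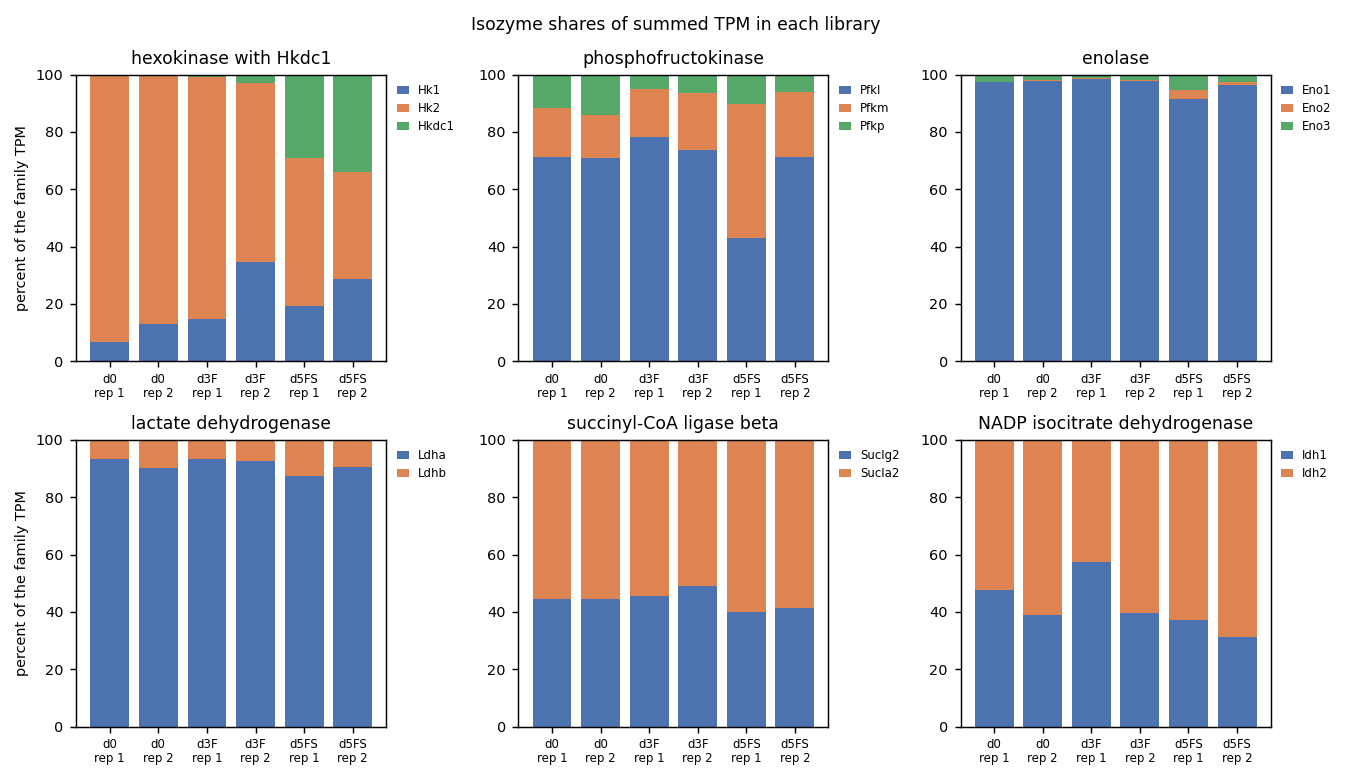
Stacked bars of the percent of summed TPM that each isozyme held in 6 enzyme families (hexokinases with Hkdc1, phosphofructokinases, enolases, lactate dehydrogenases, succinyl-CoA ligase beta subunits and NADP-dependent isocitrate dehydrogenases), 1 bar per library of d0, d3F and d5FS. Hkdc1 is visible only in the d3F and d5FS bars of the hexokinase panel and reaches 29.2% and 33.9% in d5FS, and the d5FS replicates differ in the phosphofructokinase panel.

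At the pyruvate dehydrogenase step, Pdk1, a kinase that inhibits the complex (chr2:71873224-71903858), had the largest fall of all members in the edgeR fit. It had 97.6 and 219 CPM in d0, 89.4 and 73.2 CPM in d3F and 18.1 and 23 CPM in d5FS. Both d5FS libraries were low and close together, whereas the d0 replicates were far apart. Pdk1 fell by 2.95 ± 0.43 on the log2 scale between d0 and d5FS (adjusted p = 0.00427, edgeR) and was called in every alternative run for that comparison. Pdhb, the beta subunit of the E1 component (chr14:8165996-8173025), had 203 and 255 CPM in d0, 106 and 118 CPM in d3F and 61.9 and 89.2 CPM in d5FS, 3 separate levels. It fell by 1.60 ± 0.31 on the log2 scale between d0 and d5FS (adjusted p = 0.0105, edgeR).

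The other subunits were not called without the block. Pdha1, the E1 alpha subunit on the X chromosome, had 266 and 282 CPM in d0, 199 and 190.0 CPM in d3F and 192 and 149 CPM in d5FS, and was called lower only with the replicate block (-0.69, adjusted p = 0.034). Dlat, the E2 acetyltransferase, had 90.9 and 82.2 CPM in d0, 99 and 92.6 CPM in d3F and 80.4 and 50.3 CPM in d5FS. Dld, the E3 subunit that the oxoglutarate dehydrogenase complex also uses, had 68.2 and 77 CPM in d0, 65 and 72.7 CPM in d3F and 53.3 and 58.5 CPM in d5FS. Dlat and Dld passed in neither fit, although their d5FS libraries lay below their d0 libraries.

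In the TCA group Idh3a, the catalytic subunit of the NAD-dependent isocitrate dehydrogenase (chr9:54586334-54604661), was the 1 gene called in the edgeR fit with the filter on low counts and no block. It had 89.2 and 116 CPM in d0, 73.6 and 89.6 CPM in d3F and 33.8 and 57.5 CPM in d5FS, with d5FS below the other 4 libraries. Idh3a fell by 1.17 ± 0.34 on the log2 scale between d0 and d5FS (adjusted p = 0.0417, edgeR). Of its partner subunits, Idh3b overlapped between d0 and d5FS, with 121 and 98.1 CPM in d0 and 128 and 119 CPM in d5FS, and Idh3g was lower in both d5FS libraries, with 80.8 and 59.1 CPM in d0 and 41.2 and 44.2 CPM in d5FS. Exons of Idh3b, unlike those of Idh3a and Idh3g, overlap exons of an opposite-strand gene, Nop56. Idh3g (-0.69, adjusted p = 0.0469) was called lower only with the replicate block, and the difference between the subunits was not tested.

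Mdh2, the mitochondrial malate dehydrogenase, had 138 and 182 CPM in d0, 108 and 154 CPM in d3F and 48.8 and 102 CPM in d5FS, and was called lower with the block (-1.16, adjusted p = 0.01), in the DESeq2 Wald test (adjusted p = 0.0356) and in edgeR without the filter on low counts (0.0168). Suclg1, the alpha subunit of succinyl-CoA ligase, had 54.1 and 129.99 CPM in d0 and 33.9 and 77.8 CPM in d5FS, with overlap, and was called lower with the block (-0.71, adjusted p = 0.0231). The order of its libraries turned on d0 replicate 2, without which the log2 fold change was 0.0498. Fh1, fumarase, and Mdh1, the cytosolic malate dehydrogenase, had d5FS libraries at 90.0 and 100.5 CPM and at 134 and 159 CPM, below d0 at 105 and 136 CPM and at 165 and 204 CPM, and passed in neither fit.

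Other TCA genes overlapped between d0 and d5FS and were not called. Cs, citrate synthase at the entry of the cycle, ranged from 150.3 to 280.3 CPM over the 6 libraries. Aco1, the cytosolic aconitase that also acts as an iron-regulatory protein, ranged from 50.4 to 115 CPM, and Ogdh and Dlst, subunits of the oxoglutarate dehydrogenase complex, from 33.6 to 129 and from 69.7 to 191 CPM. Suclg2 and Sucla2, the GTP- and ATP-forming beta subunits of succinyl-CoA ligase, were among the steadiest members, at 83.3 to 113 CPM and 66.7 to 92.7 CPM. Suclg2 made up 44.5% of their summed TPM in both d0 libraries, 45.5% and 49% in d3F and 39.9% and 41.3% in d5FS.

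Idh1 and Idh2, the cytosolic and mitochondrial NADP-dependent isocitrate dehydrogenases, were not called. Idh1 had 66.3 and 133 CPM in d0, 180.0 and 167 CPM in d3F and 119.6 and 92.7 CPM in d5FS, so that both d3F libraries were the highest. Idh2 had 52.7 and 153 CPM in d0, 96.5 and 185 CPM in d3F and 147 and 148 CPM in d5FS. Idh1 made up 47.7% and 38.7% of the pair in d0, 57.6% and 39.6% for d3F and 37.2% and 31.4% for d5FS, with overlap between d0 and d3F.

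None of the 4 pentose phosphate genes was called in the edgeR fit with the filter on low counts and no block. G6pdx, the X-linked enzyme of the first step, had 87 and 47 CPM in d0, 67.3 and 37.5 CPM in d3F and 23.2 and 35.4 CPM in d5FS (log2 fold change from d0 -1.19 ± 0.43, adjusted p = 0.0779, edgeR). It passed in the DESeq2 Wald test (adjusted p = 0.0288) and in edgeR without the filter (0.0101). Pgd, which makes ribulose 5-phosphate, had 68.1 and 158 CPM in d0, 83.6 and 130.2 CPM in d3F and 30.1 and 84.4 CPM in d5FS. Taldo1, transaldolase, had 188 and 350.0 CPM in d0, 195 and 291 CPM in d3F and 128 and 192 CPM in d5FS. With the block, Pgd (-1.03, adjusted p = 0.0184) and Taldo1 (-0.71, adjusted p = 0.0277) were called lower in d5FS, and Pgd also in edgeR without the filter (adjusted p = 0.0342). Tkt, transketolase, was the most abundant of the 4, at 353 and 775 CPM in d0, 611 and 998 CPM in d3F and 430.1 and 558 CPM in d5FS, and its populations overlapped.

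Of the gluconeogenic members, Pck2, the mitochondrial phosphoenolpyruvate carboxykinase, was highest in d3F, with 15.6 and 54.7 CPM in d0, 121 and 135 CPM in d3F and 59.5 and 66.7 CPM in d5FS. Every d3F library lay above all others, and both d5FS libraries above both d0 libraries. Its log2 fold change from d0 to d3F was 1.87 ± 0.52 (adjusted p = 0.0797, edgeR), and it passed with the block as given above. Fbp1 had 32 and 10 reads in d0, 8 and 2 for d3F and 3 and 1 for d5FS.

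Replicates differed in a common direction. Replicate 2 was higher than replicate 1 in all 3 populations for 26 of the 44 members (59.1%), against 24.7% of all tested genes. In d5FS the median difference, replicate 2 minus replicate 1 on the log2 scale, was 0.72 for the glycolytic genes, 0.56 for all members and 0.02 for all genes. The summed CPM of the non-polyadenylated RNAs Rmrp, Rpph1 and Terc was also higher in replicate 2 of each population. It was 118000 against 38860 in d0, 79170 against 38170 in d3F and 73510 against 60280 in d5FS. Rmrp and Rpph1 made up nearly all of it. Terc alone had 279 against 144 CPM in d0, 106 against 107 CPM in d3F and 68.3 against 99.1 CPM in d5FS. Whether these RNAs have a part in the differences above was not tested. The study names 1 library of each population mRNA and the other total RNA without tying either to a replicate number.

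Other genes of the same pathways came from a list of 53, of which 52 were in the tables and 41 were tested. From d0 to d5FS 4 of the 41 rose (9.76%, where 12.5% of all tested genes rose) and 4 fell (9.76%, where 10.7% of all fell). Besides Hkdc1, the genes that rose were Pgm2, a phosphoglucomutase (27.2 and 33.1 CPM in d0, 133 and 178 CPM in d5FS, log2 fold change 2.37 ± 0.33, adjusted p = 0.00363, edgeR), G6pc3, a glucose 6-phosphatase (4.39 and 4.2 CPM, then 16.6 and 20.4 CPM), and Pgls of the pentose phosphate pathway (35.1 and 44.5 CPM, then 90.8 and 124 CPM). Both d5FS libraries of each lay above both d0 libraries. The genes that fell were Eno1b, Fbp2, Gpd2 (by 1.99-fold) and Pdk3, a further pyruvate dehydrogenase kinase (38.9 and 28.2 CPM in d0, 14.9 and 12.3 CPM in d5FS, log2 fold change -1.30 ± 0.32, adjusted p = 0.024, edgeR). Eno1b shares reads with the member Eno1, as given above. Fbp2 had few reads, 16 and 22 in d0 and 1 and 3 in d5FS. From d0 to d3F 1 fell, Ldhd, with 14 and 31 reads in d0 and 1 and 0 in d3F. From d3F to d5FS 1 rose, Hkdc1. Each is 2.44% of the 41, where 4.7% and 1.54% of all tested genes were called in these steps. With the block the counts were 16 between d0 and d5FS, 5 between d0 and d3F and 6 between d3F and d5FS, beside 37.6%, 9.69% and 6.98% of all genes. Liver genes of gluconeogenesis and glycolysis were barely read: Pck1 and G6pc had at most 5 reads in any library, and Pklr at most 32.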

How the data were processed

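RNA-seq libraries of d0, d3F and d5FS cells, 2 each, were analysed. According to the study's methods, RNA was depleted of ribosomal RNA, sequenced as paired ends, aligned to mm10 with STAR and quantified with RSEM. Versions and annotation are not given in the sources used here. The authors deposited expected counts per gene (estimates, not normalised) and TPM (counts divided by effective length and scaled to a common sum). FPKM was not used.

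Expected counts were rounded and fitted with edgeR 4.0.16 in R 4.3.3 (filterByExpr, TMM, one mean per population, glmQLFit and glmQLFTest, 3 residual degrees of freedom, 14539 genes). P-values were adjusted over all tested genes (Benjamini-Hochberg), and SE is the log2 fold change over the square root of F. CPM values use TMM. The smallest exact permutation p for 2 against 2 libraries is 0.33, so none was run. Alternatives used DESeq2 1.42.0, other filters and scalings, and fits without each library. Eno1 with Eno1b and TPM among coding genes were added after seeing the data.

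Replicate numbers come from the labels. Deviations of same-numbered samples correlated at 0.314 (d0 and d3F), 0.278 (d3F and d5FS) and 0.324 (d0 and d5FS), so the numbers were taken as pairs in the blocked fit. Members and lists were chosen with earlier results of these data known. Named are members called in edgeR, all members of isozyme families, and from the other lists genes called with over 2-fold change, at most 6 per comparison. Other members are given by levels, with fold changes where the block called them; the fold change of G6pdx and the name of Gpd2, under 2-fold, fall outside this and were chosen after their values were seen. Gene positions are from GENCODE M21 on mm10. Exons of 12 members overlap an opposite-strand gene, and reads shared with pseudogene copies cannot be resolved. Library totals were 16457729 to 22768686.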

Additional observations from a re-analysis of the deposited data

How the results depend on the processing

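The counts here and in the next paragraph stand beside shares of all genes that also moved. From d0 to d3F that share was 10.1% (DESeq2 Wald test), 2.68% (against 2-fold), 9.04% (no filter) and 2.95% (at least 10 counts). It was 3.07% with only the groups compared and 9.69% with the replicate block. From d3F to d5FS it was, in the same order, 7.17%, 1.28%, 6.66%, 1.19%, 3.83% and 6.98%. Fits with 1 library left out moved it as well. Members called from d0 to d5FS numbered 9 with DESeq2 size factors (23.5% of all genes) or at least 10 counts in every sample (20.9%). With library size alone they numbered 8 (20.8%). They were 16 in the DESeq2 Wald test (27.5%), 2 in DESeq2 tested against 2-fold (Pdk1, Pfkp, beside 6.79%) and 17 without a filter (21.7%). With only the groups compared they were 5 (18.7%), and with the replicate block 23 (37.6%). Leaving out 1 library gave 1 to 9. For d0 to d3F they were 3 (Wald), 3 (no filter), 4 (replicate block) and 0 to 2 (1 library out). For d3F to d5FS they were 6 (Wald), 7 (no filter), 1 (only the groups compared), 6 (replicate block) and 0 to 1 (1 library out).

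Other pathway genes called from d0 to d3F were 4 (Wald), 0 (against 2-fold, at least 10 counts, or only the groups compared), 6 (no filter), 5 (replicate block) and 0 to 1 (1 library out). From d3F to d5FS they were 2 (Wald), 3 (no filter), 0 (at least 10 counts), 6 (replicate block) and 0 to 1 (1 library out), and from d0 to d5FS 14 (Wald), 2 (against 2-fold), 16 (no filter), 16 (replicate block) and 5 to 7 (1 library out). Hypoxia-responsive genes called were 1 (against 2-fold), 5 (no filter), 5 (replicate block) and 0 to 2 (1 library out) from d0 to d3F, 3 (Wald), 0 (against 2-fold), 3 (no filter), 2 (only the groups compared), 3 (replicate block) and 0 to 2 (1 library out) from d3F to d5FS, and 2 (against 2-fold) and 3 to 7 (1 library out) from d0 to d5FS.

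Leaving out 1 library moved the Pfkl share, d5FS minus d0, between -28.1 and 0.129 percentage points, the Suclg2 share between -4.6 and -3.19, and the log2 ratio of glycolytic sums between -2.04 and -1.05. Among coding genes that ratio was -1.04 for glycolysis, -0.0946 for the TCA group and -0.34 for the pentose phosphate genes, which were at -0.566 with TPM rescaled by TMM and -0.452 in CPM. Suclg1 changed sign from d0 to d5FS without d0 replicate 2 (0.0498), and its range with 1 library out began at -1.43. The replicate block removed no member called without it and turned no direction among the members named. The cause of these shifts was not tested, beyond the fewer libraries of the fits that leave 1 out, where the lone library of a population is assumed to vary like the others.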

Other observations

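Among 18 hypoxia-responsive genes, all tested, 4 rose (22.2%, where 12.5% of all tested genes rose) and 2 fell (11.1%, where 10.7% of all fell) from d0 to d5FS in the edgeR test. Vegfa, an angiogenic growth factor, had 4.3 and 8.46 CPM in d0, 31.2 and 46.8 CPM in d3F and 114 and 130.1 CPM in d5FS, with no overlap between populations. It rose with a log2 fold change of 4.26 ± 0.43 from d0 to d5FS (adjusted p = 0.00173, edgeR). Mxi1, a Myc antagonist of the Max network, overlapped between d0 and d3F (8.42 and 21.4 CPM in d0, 20.2 and 16.2 CPM in d3F) and had 98.5 and 115 CPM in d5FS (log2 fold change from d0 2.84 ± 0.46, adjusted p = 0.00547, edgeR). P4ha1, a collagen prolyl hydroxylase subunit, had 28.3 and 25.1 CPM in d0, 56.8 and 71.3 CPM in d3F and 94.7 and 117 CPM in d5FS, and the oxygen sensor Egln1 21.2 and 15 CPM in d0 against 34.8 and 38.8 CPM in d5FS. Epas1, which encodes HIF-2alpha, had 13.9 and 10.8 CPM in d0 and 2.61 and 3.04 CPM in d5FS, and Ankrd37 5.22 and 8 CPM against 1.13 and 1.83 CPM, and both fell. From d0 to d3F Vegfa and P4ha1 rose and Epas1 fell, 16.7% of the 18, where 4.7% of all tested genes were called. From d3F to d5FS Mxi1 rose, 5.56% of the 18, where 1.54% of all tested genes were called. Between d0 and d5FS the calls of Vegfa, Mxi1 and P4ha1 held in each fit that left out 1 library, while those of Egln1, Ankrd37 and Epas1 did not, and 9 genes passed with the replicate block, beside 37.6% of all genes. In the single steps no hypoxia call held in every such fit, and 5 and 3 genes passed with the block, beside 9.69% and 6.98% of all genes.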
